A study of Mus musculus with 2 samples.

Results

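Gm26880, Gm26573 and C230088H06Rik are 3 long non-coding RNAs (lncRNAs) that lie among the zinc finger genes of mouse chromosome 4. All 3 lie on the strand opposite to the genes with Zfp names that they overlap. They were named by gene identifier from 614 known lncRNAs measured in mouse liver. They were selected on their position and with their measured levels in both diets in view, so those values and their ratios are given as a description and no test was made on them. The study sequenced total RNA from C57BL/6 wildtype mice at postnatal week 27, with 1 library from a high fat diet (60% fat for 23 weeks) and 1 library from a normal diet. The labels call the source hepatocyte, while the protocol describes RNA taken from removed and frozen liver, and they do not say whether animals were pooled. None of 24 cell type markers, 8 of them for hepatocytes, could be read to check this, because the table lists lncRNAs only. With bulk RNA, a change in the number of cells of a type and a change in RNA per cell cannot be told apart.

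The zinc finger genes of this region encode proteins whose tandem fingers bind DNA, many of them joined to a KRAB domain that recruits repressors. Such genes arise by tandem duplication, and KRAB zinc finger proteins as a family are known for binding and silencing transposable elements. A lncRNA transcribed inside such a cluster can therefore share much of its sequence with neighbouring copies or with repeats elsewhere. A sequencing read that matches several places is difficult to assign to 1 gene.

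On the GRCm38 build with GENCODE M21, the cluster spans chr4:145510759-147848366 (2.34 Mb). It holds 22 protein-coding genes, of which 18 carry Zfp names, 14 of these on the plus strand and 4 on the minus strand. Gm26880 (ENSMUSG00000096979, chr4:146509094-146511764, minus strand) has 2 exons with 1318 exonic bases, and all 1318 bases lie within the span of Zfp981 without touching its exons. Gm26573 (ENSMUSG00000096958, chr4:146153456-147024959, minus strand) has 4 exons with 3020 exonic bases spread over 871.5 kb. Its span overlaps 7 coding genes, namely Zfp600, Zfp992, Zfp981, Zfp993, Gm21411, Zfp989 and Rex2. Gm21411 is also on the minus strand, and of Rex2 only 3110 bases are overlapped. C230088H06Rik (ENSMUSG00000097168, chr4:147018235-147492201, minus strand) has 2 annotated transcripts with 3492 exonic bases over 474 kb, and its span runs across Rex2, Zfp991, Zfp988 and Zfp978. No exon base of the 3 lncRNAs lies in an exon of a coding gene. All 3 are annotated as lincRNA.

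**Figure D1:**
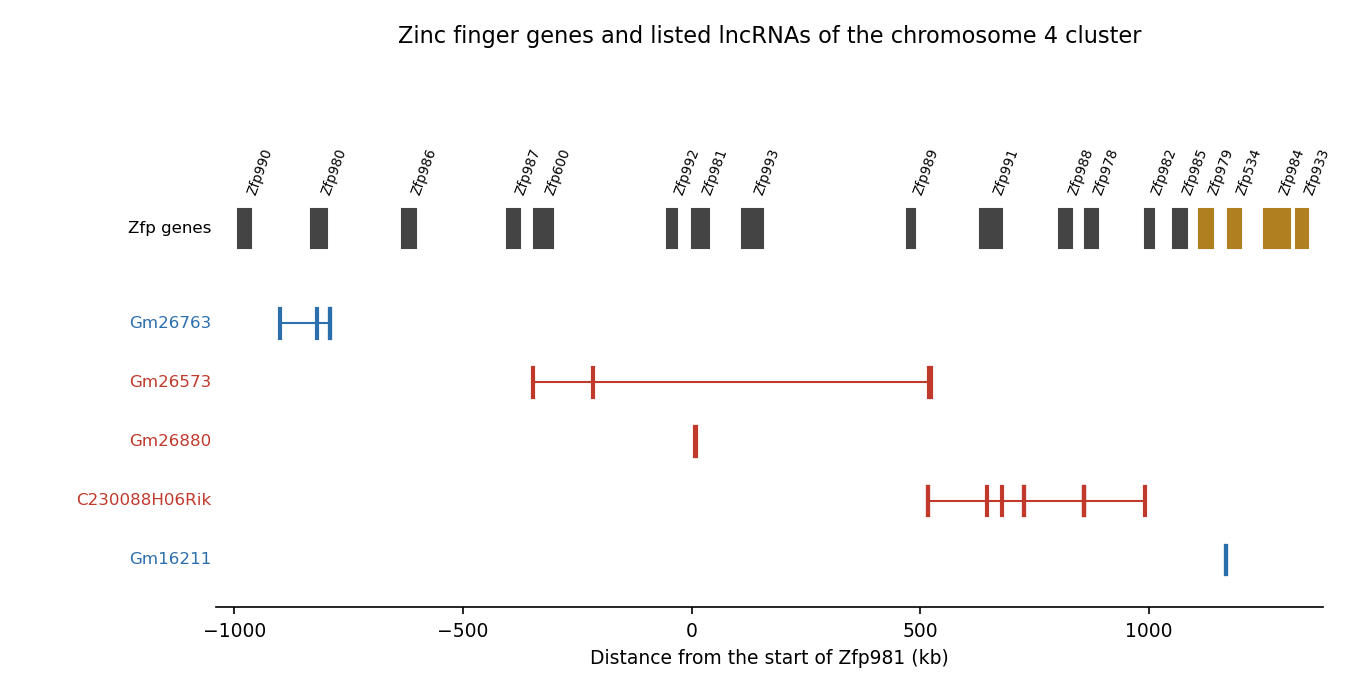
Map of the chromosome 4 zinc finger cluster, with distance from the start of Zfp981 in kb on the horizontal axis. Upper bars are the 18 coding genes with Zfp names by strand and lower lines are the 5 listed lncRNAs with their exons as ticks. Coding genes with other names, such as Rex2 and Gm21411, are not drawn. Gm26573 and C230088H06Rik each run across several zinc finger genes, while Gm26880 lies inside the GENCODE M21 span of Zfp981.

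Gm26573 and C230088H06Rik were close copies of each other. An alignment of Gm26573-201 (3020 bases) with C230088H06Rik-202 (3010 bases) had 3024 columns, of which 2949 were identical (97.5%), 46 were mismatches and 29 were gaps. The longest identical run was 386 bases. A stretch of 200 bases is shown because it shows how little separates the transcripts. Capitals mark the 3 positions that differ, and the stretches are transcript positions 207 to 406 of Gm26573-201 and 205 to 404 of C230088H06Rik-202, from GENCODE M21.
Gm26573-201: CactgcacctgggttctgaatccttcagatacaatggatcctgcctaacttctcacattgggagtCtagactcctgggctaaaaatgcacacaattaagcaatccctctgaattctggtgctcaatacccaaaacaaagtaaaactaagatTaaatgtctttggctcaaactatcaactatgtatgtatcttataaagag
C230088H06Rik-202: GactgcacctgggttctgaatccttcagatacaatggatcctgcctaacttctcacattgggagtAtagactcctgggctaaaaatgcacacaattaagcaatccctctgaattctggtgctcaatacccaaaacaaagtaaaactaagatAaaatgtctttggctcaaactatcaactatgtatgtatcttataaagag
The spans of Gm26573 and C230088H06Rik share 6725 bases (chr4:147018235-147024959) and no exon base. The stretches shown do not lie side by side. They are in the second exon of each transcript, chr4:147020034-147021397 for Gm26573-201 and chr4:147360002-147360865 for C230088H06Rik-202. Between the last exon of the C230088H06Rik transcript of 2179 bases (chr4:147018235-147020012) and the second exon of Gm26573 (chr4:147020034-147021397) lie 21 bases. Both genes are on the minus strand, so the Gm26573 exon is the upstream one.

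Gm26880 had no such partner in the cluster, but it resembled transcripts of genes outside the cluster, most of them on other chromosomes. Only the longest match to each gene was kept. By these, it matched annotated transcripts of 14 other genes over at least 200 bases at 90% identity or more, on 9 chromosomes. Of those genes, 5 were protein-coding (Chd9, Apobec3, Cep85, Cnbd2 and Miga1). None of the 14 was listed in the deposited table. The longest match was to Gm42031, a lincRNA of chromosome 8, in reverse orientation, with 95.9% identity over 811 bases. Part of it is shown to make this likeness visible, with capitals for the 4 positions that differ and Gm42031-201 as its reverse complement. Positions are 103 to 252 of Gm26880-201 and 157 to 306 of the reverse complement of Gm42031-201.
Gm26880-201: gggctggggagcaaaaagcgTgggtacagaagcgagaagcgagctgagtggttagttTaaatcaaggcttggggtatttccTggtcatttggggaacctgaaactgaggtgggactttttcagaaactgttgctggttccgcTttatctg
Gm42031-201: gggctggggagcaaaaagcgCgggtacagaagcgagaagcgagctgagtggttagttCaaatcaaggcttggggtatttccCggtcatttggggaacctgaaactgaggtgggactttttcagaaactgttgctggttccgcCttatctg
The match to Chd9, which encodes a chromatin remodeler, had 97.6% identity over 337 bases, also in reverse orientation. The match to Cep85, the gene of a centrosomal protein, had 98.3% identity over 289 bases in the same orientation. Cep85 also lies on chromosome 4, outside the cluster. By the longest match to each gene, Gm26573 and C230088H06Rik reached 200 bases at 90% identity only with each other.

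The likeness was measured as the share of exact 50-base words of a lncRNA that occur in an annotated transcript of another gene, on either strand. The share was 69.4% for Gm26573, 58.6% for C230088H06Rik and 47.4% for Gm26880. The median over 606 listed lncRNAs with annotated transcripts was 6.21%, and 90 of the 606 (14.9%) exceeded 50%. This background also counts words shared with a gene that overlaps the lncRNA at its own position. Gm26527, for example, had 97.9% of its words in another gene and 0% in genes that do not overlap it. The 14.9% is therefore not a share of lncRNAs with copies. For Gm26573, 2009 of 2940 words (68.3%) were shared with C230088H06Rik, and these were 58.6% of the 3429 words of C230088H06Rik. For Gm26880, the largest single share was with Gm43305, a transcript of chromosome 14, at 399 of 1269 words (31.4%). The search covered annotated transcripts and not the rest of the genome. Base composition differed as well, with 36.7% G and C in Gm26573-201, 36.3% and 36.5% in the C230088H06Rik transcripts and 50.5% in Gm26880-201, beside a median of 47.9% over 1020 transcripts of listed lncRNAs. The sources used here do not say how multiply matching reads were counted, so the values of Gm26573 and C230088H06Rik cannot be fully separated, and the part of shared sequence in the values was not tested.

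**Figure D2:**
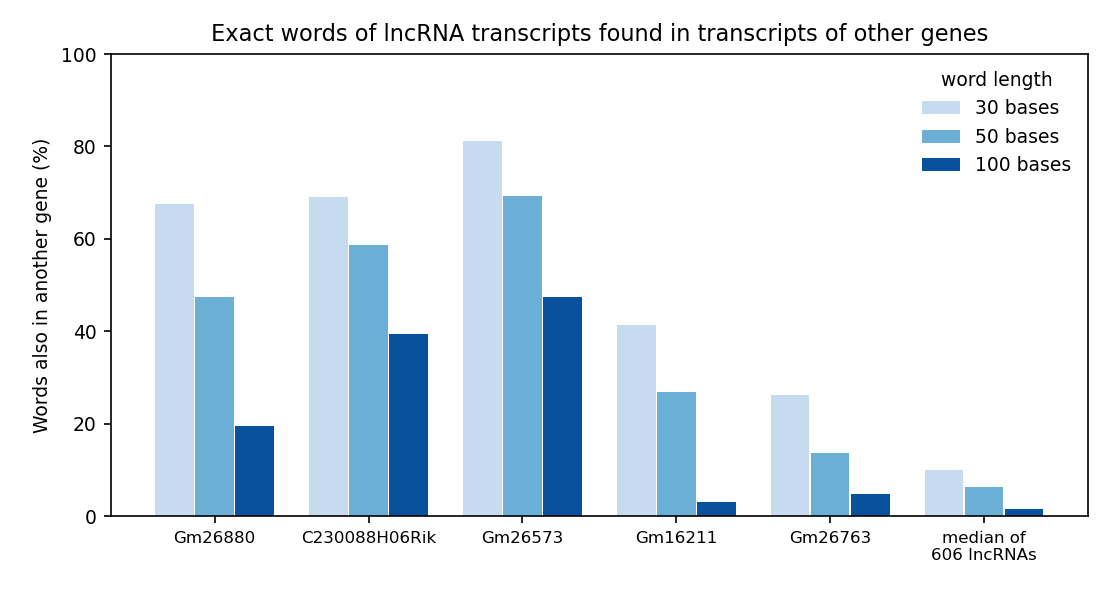
Bars give the percent of exact words of 30, 50 and 100 bases in each cluster lncRNA that also occur in a transcript of another gene, with the median of 606 lncRNAs at the right. Gm26573 and C230088H06Rik have the tallest bars at each length, and Gm26880 stands above the 606-lncRNA median. The median also counts words shared with genes that overlap a lncRNA at its own position.

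Pieces of the first exons of the copies were found near starts of zinc finger genes. The first exon of C230088H06Rik-202 (27 bases, chr4:147492175-147492201) begins 216 bases from the start of Zfp982, which runs the other way. The other C230088H06Rik transcript has a different first exon (chr4:147359008-147359153) and was not searched. The reverse complement of the 27-base exon was searched in 32851 RefSeq promoter windows (GRCm38.p6, 250 bases before to 50 after each gene start), and the whole exon was found in 1 window, that of Zfp982, at its own position. Words of 20 bases of this exon, on either strand, occurred in 4 windows (0.0122%), all of cluster genes. The other 3 windows hold a stretch of 22 of its 27 bases. The exon and 100 bases of each window are shown so that the whole match at Zfp982 can be set beside the partial ones. Capitals mark the bases that match the reverse complement of the exon, and each window reads in the direction of its gene.
C230088H06Rik-202 exon 1: attcattgattgattgattctttgttt
Zfp982 (chr4:147492167-147492266, plus strand): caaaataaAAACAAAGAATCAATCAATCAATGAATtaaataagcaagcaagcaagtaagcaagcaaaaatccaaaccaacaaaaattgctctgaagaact
Zfp980 (chr4:145670447-145670546, plus strand): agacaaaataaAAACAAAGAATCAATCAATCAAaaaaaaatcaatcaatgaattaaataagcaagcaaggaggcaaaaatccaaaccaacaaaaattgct
Zfp988 (chr4:147305354-147305453, plus strand): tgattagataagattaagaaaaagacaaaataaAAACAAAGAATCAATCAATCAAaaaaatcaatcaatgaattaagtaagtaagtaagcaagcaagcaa
Zfp534 (chr4:147702775-147702874, minus strand): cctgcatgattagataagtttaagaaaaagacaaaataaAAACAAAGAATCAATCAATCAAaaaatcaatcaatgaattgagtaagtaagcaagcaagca
The first exon of Gm26573 (56 bases, chr4:147024904-147024959) gave 20-base words in 3 windows (0.00913%), those of Zfp981, Zfp985 and Zfp988, again all cluster genes. The longest match, 33 bases, was before a RefSeq start of Zfp981. The GENCODE M21 span of Zfp981 begins earlier (chr4:146502027) and holds Gm26880 (chr4:146509094-146511764). By the RefSeq start used here, Gm26880 lies upstream of Zfp981 and not inside it.
Gm26573-201 exon 1: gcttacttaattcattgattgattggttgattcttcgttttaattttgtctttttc
Zfp981 (chr4:146514670-146514769, plus strand): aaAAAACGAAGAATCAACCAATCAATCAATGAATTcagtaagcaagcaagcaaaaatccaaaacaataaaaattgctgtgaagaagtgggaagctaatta
The matched stretches hold short repeats of aatc. Of the 22 coding genes of the cluster, 14 had a promoter window, and none of the 3 lncRNAs had one. A match describes letters only.

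Levels are given as CPM and as whole reads recovered from them. The CPM are relative to totals of 193538 reads on the high fat diet and 242194 on the normal diet, slightly more than the reads of the listed lncRNAs, and shares are of these totals. Apart from values of 1 read, all recovered numbers were even and were treated as pairs. Intervals are exact 95% intervals (Clopper-Pearson) and cover counting error only. There is 1 library per diet, so no value has a replicate check. The listed lncRNAs together had 193260 reads on the high fat diet and 241812 on the normal diet, with a median of 24 and 30 reads per lncRNA.

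Gm26880 was, per kilobase, among the most abundant known lncRNAs in both libraries. It had 2486 reads (12845 CPM) on the high fat diet and 2006 reads (8283 CPM) on the normal diet. That was 1.28% of the total (interval 1.21% to 1.36%) and 0.828% (0.778% to 0.881%). The high fat diet value was the higher, by 1.55-fold (1.43 to 1.69). Per kilobase of exon the level was 9746 and 6284 CPM, which ranked 9 and 15 of 606 lncRNAs. Its exons lie inside the GENCODE M21 span of Zfp981 and outside the exons of that gene, but upstream of the RefSeq start shown above. Whether counting kept strands apart is not given. Its reads therefore cannot be told apart from those of any unspliced RNA of the GENCODE M21 span of Zfp981.

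C230088H06Rik was present at much lower levels. It had 66 reads (341 CPM) on the high fat diet and 32 reads (132 CPM) on the normal diet, or 0.0341% (0.0235% to 0.0479%) and 0.0132% (0.00755% to 0.0215%) of the total. The level was 2.58-fold higher on the high fat diet (1.38 to 5.02). Gm26573, its near copy, had 52 reads (269 CPM) and 22 reads (90.8 CPM), or 0.0269% (0.0176% to 0.0394%) and 0.00908% (0.00453% to 0.0163%). It was 2.96-fold higher on the high fat diet (1.41 to 6.63). For both copies the high fat diet value was the higher.

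Within the group, Gm26880 held 95.5% (94.2% to 96.5%) of the 2604 reads on the high fat diet and 97.4% (96.2% to 98.3%) of the 2060 reads on the normal diet. Its CPM per kilobase was 99.8 times that of C230088H06Rik on the high fat diet and 166 times on the normal diet. Against Gm26573 it was 109.5 and 209 times. Per kilobase, C230088H06Rik stood at 97.7 and 37.8 CPM and Gm26573 at 89.0 and 30.1 CPM, so the copies kept the same order in both libraries. Between these copies the intervals of the shares overlap in each library.

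**Figure D3:**
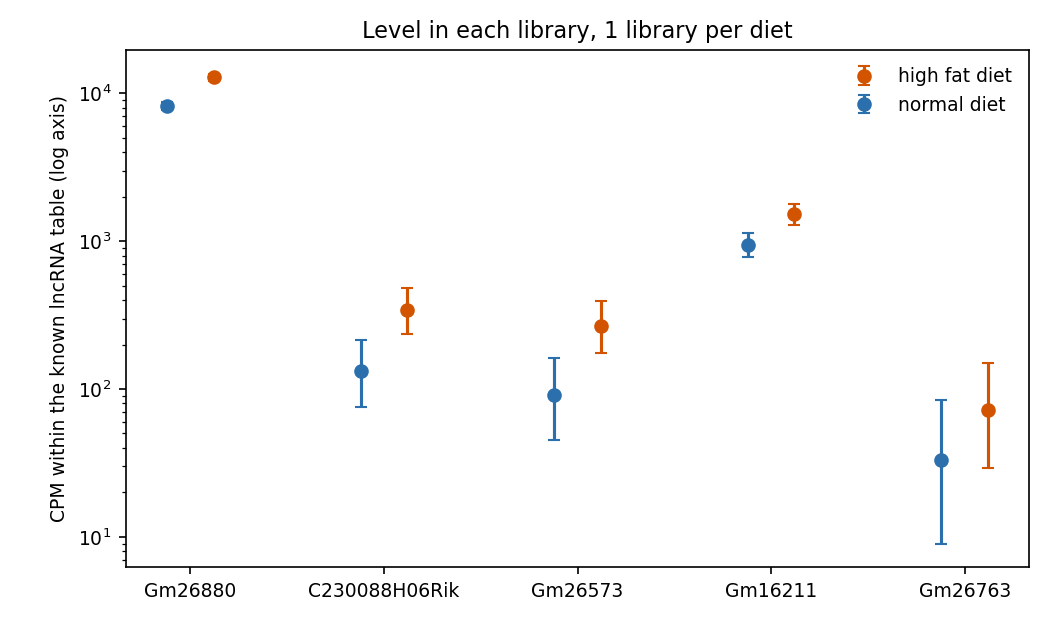
Points give the CPM of each cluster lncRNA for either diet on a log axis, with bars for the 95% counting interval. Gm26880 stands far above the others, and the high fat diet point is the higher for each of the 5 lncRNAs.

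Because reads may be shared between the copies, their reads were also summed, a choice made after the data were seen. Together Gm26573 and C230088H06Rik had 118 reads (610 CPM) on the high fat diet and 54 reads (223 CPM) on the normal diet, a 2.73-fold difference (1.71 to 4.49). The sum does not depend on how the counted reads were split between these copies. The diet ratios of the 3 lncRNAs are given side by side and were not tested against each other.

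An lncRNA was called different where 1 diet exceeded the other by 2-fold or more and the larger number of reads was 20 or more. Of 364 lncRNAs that reached 20 reads, 58 (15.9%) were called, 28 of them higher on the high fat diet (7.69%) and 30 lower (8.24%). Gm26573 and C230088H06Rik were among those called higher, and Gm26880 was not, with 1.55-fold. A ratio of at least 1.5-fold higher was found for 58 of the 364 (15.9%), Gm26880 included. The ratio was above 1 for 172 of 364 (47.3%), and the counting interval lay above 1 for 67 (18.4%). All 3 lncRNAs were in both of these sets. A ratio equal to or above that of Gm26573 was found for 14 of the 364, of C230088H06Rik for 21 and of Gm26880 for 57, each count including the lncRNA itself. The 3 lncRNAs were picked with these ratios known, so no support is read from these shares.

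**Figure D4:**
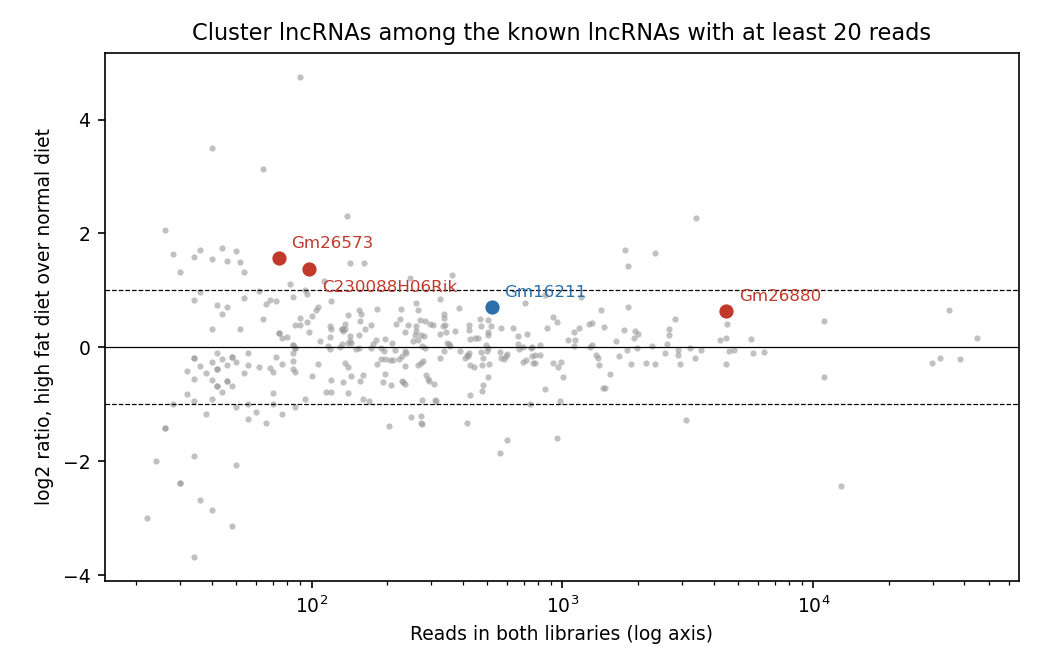
Each point is a known lncRNA with at least 20 reads, with reads in both libraries on a log horizontal axis and the log2 ratio of high fat diet to normal diet on the vertical axis. The chromosome 4 cluster lncRNAs are named, and all of them lie above a log2 ratio of 0.

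The authors' deposited table gives adjusted p = 0.00875 for C230088H06Rik and 0.0105 for Gm26573 and marks both as significant. For Gm26880 the authors' deposited table gives an adjusted p of 4.99e-24 with a fold of 1.55, and does not mark it. Those p-values come from 1 library per diet and hold no spread between animals.

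Other listed lncRNAs of the cluster had ratios in the same direction. GENCODE M21 annotates 12 lncRNA genes in the interval. Of these, 5 were listed, and the other 7 were not analysed here. Gm16211 (chr4:147668518-147670854), which lies between Zfp979 and Zfp534, had 296 reads (1529 CPM) on the high fat diet and 228 reads (941 CPM) on the normal diet, 1.62-fold higher (1.26 to 2.09) and below the 2-fold call. Gm26763 (chr4:145601963-145711968), which spans Zfp980, had 14 and 8 reads (72.3 and 33.0 CPM), 2.19-fold (0.557 to 10.2), under the 20-read minimum. The ratio was above 1 for all 5 listed lncRNAs of the interval, beside 172 of the 364 lncRNAs with 20 reads (47.3%). Gm26880, Gm26573 and C230088H06Rik were picked with their ratios known, and Gm26763 was under the read minimum. The count of 5 is therefore not read as a trait of the cluster. Elsewhere on chromosome 4, 22 lncRNAs reached 20 reads, of which 15 (68.2%) had a ratio above 1, with a median log2 ratio of 0.17. Of the 22, 3 (13.6%) were called, all of them higher, beside 15.9% called over all 364.

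The 3 lncRNAs were set beside other lncRNAs that overlap the span of a zinc finger gene (named Zfp, Zscan or Zkscan), all of them on the opposite strand. There were 15 others, 14 outside the cluster, and 13 reached 20 reads. None of the 13 was called, beside 15.9% called over all 364. A ratio above 1 was found for 9 (69.2%) and below 1 for 4, beside 47.3% above 1 over all 364. The median log2 ratio was 0.23 (1.17-fold), beside -0.01 over all 364. The counting interval lay above 1 for 3 of the 13 and below 1 for 1, beside 67 and 59 of all 364. No difference is read from shares of 13 lncRNAs. Their ratios ran from 0.695-fold for Gm26675, opposite Zfp597, to 1.72-fold for A530083I20Rik, opposite Zkscan7. The one with most reads, Gm26669 at Zfp36l1 (which encodes an RNA-binding protein that promotes mRNA decay), had 5766 and 5258 reads and 1.37-fold. Gm26899 at Zfp106 had 2464 and 3282 reads, a number of the order of that of Gm26880. Its ratio was 0.940-fold, with a counting interval (0.872 to 1.01) that includes 1. In position the groups differed, since 13 of the 14 outside the cluster shared exon bases with the zinc finger gene while the 3 cluster lncRNAs shared none. The exception was Gm26869 at Zfp971, which had 1324 and 1322 reads and a ratio of 1.25-fold (1.12 to 1.40). The list holds no Zbtb genes, another class of zinc finger genes. The listed lncRNAs at those, Gm15713 (1284 and 492 reads, 3.27-fold) and Gm9968 (1672 and 660 reads, 3.17-fold), both annotated as antisense at Zbtb20, were called higher, with ratios above those of the 3 cluster lncRNAs.

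**Figure D5:**
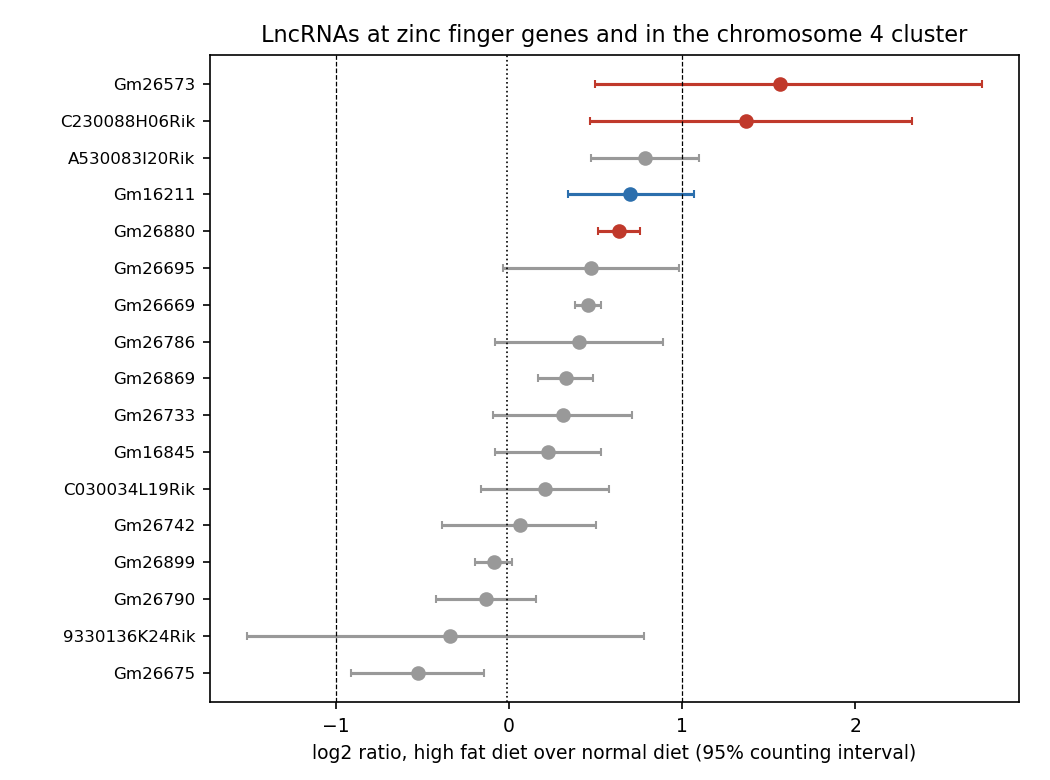
Points give the log2 ratio of high fat diet to normal diet for lncRNAs at zinc finger genes and in the chromosome 4 cluster, with bars for the 95% counting interval. Gm26573 and C230088H06Rik lie beyond a log2 ratio of 1, and the tested lncRNAs at zinc finger genes outside the cluster lie between -0.52 and 0.78.

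By the distance of log2 CPM over the 2 libraries, Gm26880 was nearest to Gm26582 of chromosome 5 (distance 0.16), which had 2338 and 2196 reads and 1.33-fold. Gm26573 was nearest to 1700083H02Rik of chromosome 12 (0.45), with 52 and 30 reads and 2.17-fold. C230088H06Rik was nearest to Gm26663, also of chromosome 4 but outside the cluster (0.25), with 58 and 36 reads and 2.02-fold. With 2 libraries this likeness is one of level and ratio only.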

How the data were processed

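LncRNAs were measured by RNA sequencing of total RNA in 2 mouse liver libraries, 1 per diet, grouped by the diet label. The submitters' processing notes name HISAT2, HTSeq, DESeq and build mm8. The sources used here do not give versions, roles, annotation, strand setting or the handling of multiply matching reads. The authors deposited CPM values per lncRNA, a fold (ratio of high fat diet to normal diet), its log2, and p-values with adjusted p-values. A second deposited table of numbered lncRNAs was not used here.

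Dividing each CPM value by the smallest of its column gave whole reads for 100% of values, to within 1e-06. All numbers other than 1 were even, so intervals used pairs of 2 reads, and 7 and 1 values of 1 read were taken as 0. CPM of 1 read was 5.17 and 4.13. Scaling totals were 193538 and 242194 reads. They exceed the reads of listed lncRNAs slightly, and how deeply each library was sequenced in all is unknown. Log2 ratios have exact binomial intervals (scipy 1.17.1). These were run on simulated counts with counting error only, which checks the calculation and says nothing about spread between animals. No diet test was possible with 1 library each, and the count test on the recovered reads was not run because it has no replicates.

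Positions and transcripts come from GENCODE M21 (GRCm38), which holds 606 of the 614 identifiers. The deposited tables hold no coordinates. GRCm38 is a later build than the mm8 of the notes, and the annotation behind the counts is not given, so the exons counted may differ from those described, in a region of duplicated genes. Transcripts were compared with blastn 2.17.0 and by exact words. Promoters come from RefSeq (GRCm38.p6). The members, gene lists and rules were chosen with earlier results of these data known. The named lncRNAs are the 3 members, the listed lncRNAs of the cluster, those at zinc finger genes with most reads or extreme ratios, and the nearest by level. Alternatives covered scaling, pseudocount, read minimum, fold, word length and gene lists.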

Additional observations from a re-analysis of the deposited data

How the results depend on the processing

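For the 3 lncRNAs, 14 alternatives of scaling, pseudocount, single-read intervals and the added sum of the copies kept each ratio above 1 and on its side of 2-fold, all within the counting interval. Not all of the 14 could move a ratio. Single-read intervals change only the interval, and the sum gives the same value, 2.73-fold, for both copies. The lowest values came with a pseudocount of 5 pairs, 2.42-fold for Gm26573 and 2.26-fold for C230088H06Rik. Median-ratio scaling shifted log2 ratios by -0.05. Over all known lncRNAs, calls higher and lower were 78 and 64 with no read minimum, 8 and 11 with a minimum of 100 reads, 58 and 66 at 1.5-fold, and 6 and 9 at 4-fold. At zinc finger genes, calls higher were 2 with Zbtb genes (Gm15713 and Gm9968, both at Zbtb20), 1 with no read minimum (Gm26763) and 1 at 1.5-fold (A530083I20Rik). Words of 30 and 100 bases found in other genes were 67.6% and 19.5% for Gm26880, 81.3% and 47.4% for Gm26573, and 69.1% and 39.4% for C230088H06Rik. A gap of 0.5 Mb in place of 1 Mb gave the same cluster. Leaving out a library was not run because a diet would have no sample. No paired analysis was possible because there was a single library for either diet. Depth limits Gm26573, C230088H06Rik and Gm26763 most.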

Other observations

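The other listed lncRNAs of the cluster also had relatives by sequence. By the longest match to each gene, Gm16211 matched transcripts of 143 genes over at least 200 bases at 90% identity or more, 9 of them listed lncRNAs. Gm26763 matched 1700095A21Rik, an antisense lncRNA at Zfp981, with 93.3% identity over 1093 bases, and Gm13165, at Zfp600, with 96.0% over 252 bases. Both partners lie in the same cluster and were not analysed here for level.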
